A study of Rattus norvegicus with 11 samples.

Results

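The metalloproteinases and their tissue inhibitors were followed in retroperitoneal white adipose tissue of rats that did or did not receive follicle-stimulating hormone (FSH). Members were the gene rows whose symbol begins with Adamts, with Adam, Mmp or Timp followed by a digit, in the families Adamts, Adamtsl, Adam, Mmp and Timp. They came to 74 of 25274 rows, 19 in Adamts, 4 in Adamtsl, 26 in Adam, 21 in Mmp and 4 in Timp, with 73 symbols because Adam21 stands on a pair of rows. The degarelix plus FSH group held 5 rats, whose osmotic pumps delivered FSH at 6 µg per kg per day. The degarelix only group held 6 rats, whose pumps carried vehicle. All 11 were wild-type female Wistar rats that ate a western diet for 6 weeks from 10 weeks of age, were then ovariectomized and were given degarelix, a drug that blocks the pituitary receptor for gonadotropin-releasing hormone and so reduces the output of gonadotropins. After the pumps were placed, food was limited for 12 days to hold body weight, then free for 7 days, and tissue was taken after a fast of 4 hours at an age of 19 weeks. Each library came from the snap-frozen tissue of 1 rat. The comparison therefore addresses what added FSH did to these transcripts when ovarian hormones and the rats' own gonadotropins were reduced in both groups.

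Metalloproteinases are enzymes with zinc at the active site that cut matrix proteins and proteins of the cell surface. ADAMTS enzymes are secreted and carry thrombospondin repeats, and ADAMTS-like proteins share those repeats but lack the protease domain. ADAM proteins sit in the membrane, and many shed the outer parts of receptors and ligands. MMPs are made as inactive precursors and, once activated, digest collagen and other matrix. TIMPs bind and block the active site of many of them. In fat the matrix around each adipocyte has to be remodelled as the cell changes size, and members of all these families take part.

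Depth and the state of the libraries bear on every value. Total counts ran between 13163021 and 19837706 in degarelix plus FSH libraries and between 16452117 and 23694602 in degarelix only libraries (exact permutation p = 0.0649). The 6 adipocyte markers (Adipoq, Plin1 and others) summed to 24466 ± 3232 CPM (counts scaled to a common library total) with FSH and 24472 ± 3278 CPM with degarelix only (SD, n = 5 and 6). Single markers went both ways, with 3 positive and 3 negative log2 changes. Lep had 2193 ± 319 CPM with FSH and 3382 ± 904 CPM with degarelix only, and Pck1 3758 ± 1384 and 2435 ± 1856 CPM. None of the 6 passed with edgeR at the threshold used below, while DESeq2 called Lep. The 5 kidney markers summed to 1.18 ± 0.55 and 1.10 ± 0.97 CPM, with Umod, Slc34a1 and Aqp2 at 0 in all libraries, and the 4 matched adrenal markers to 57.8 ± 3.71 and 62.5 ± 7.26 CPM. Degarelix plus FSH replicate 3 stood apart. It held 12711 CPM of the 5 Schwann cell and nerve markers, against 3129 to 4435 CPM in the other 4 degarelix plus FSH libraries and 3890 to 5319 CPM in the degarelix only libraries. Without this library 92 genes of the whole table passed the threshold used below, against 292 with it. That drop was not particular to it: fits with 1 library left out gave 30 to 551 genes, with 30 without FSH replicate 2. Calls on named genes that end without FSH replicate 3 are given both ways.

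Of the 74 members, 56 had at least 1 count, 41 had counts in all 11 libraries, and 37 passed the filter on low counts and were tested. Over all rows of the table, 50.8% were tested. None of the 37 reached the minimum count in 1 group alone. The families differed in how many members were seen. All 4 Timp and all 4 Adamtsl rows were tested, but 10 of 19 Adamts, 11 of 26 Adam and 8 of 21 Mmp rows. The 18 rows at 0 in all libraries were 11 Adam rows (Adam18, both rows of Adam21, Adam24, Adam26a, Adam28, Adam34l, Adam3a, Adam5, Adam6 and Adam7) and 7 Mmp rows (Mmp1, Mmp10, Mmp1b, Mmp20, Mmp21, Mmp28 and Mmp3). A count of 0 allows up to 0.127 to 0.228 CPM, depending on the library (3 counts of its total, counting error only). A value near 0 in this table need not mean a silent gene: Col1a2, which encodes a chain of type I collagen, averaged 0.343 CPM with FSH and 0.359 CPM with degarelix only.

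**Figure D1:**
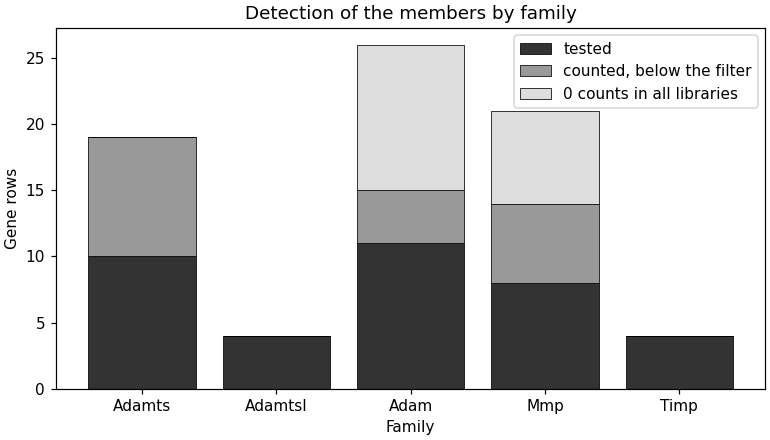
Number of gene rows (vertical axis) in each family (horizontal axis), split into rows that were tested, rows with counts that stayed below the filter, and rows with 0 counts in all 11 libraries. All 4 Timp and 4 Adamtsl rows were tested, against 8 of 21 Mmp rows.

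Some members neighbour each other in the RefSeq gene order (assembly GRCr8). A run of 10 Mmp genes (Mmp13, Mmp12, Mmp1b, Mmp3, Mmp1, Mmp10, Mmp8, Mmp27, Mmp20 and Mmp7), which holds the collagenases, stromelysins and matrilysin, had 0 tested members, with 5 at 0 and 5 below the filter with counts. In a run of 5 Adam genes (Adam9, Adam32, Adam5, Adam3a and Adam18), 3 were at 0 and Adam9 alone was tested. Adamts1 and Adamts5 are also neighbours, and both were tested.

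FSH-treated rats had more Adamts7 and Adamts4 mRNA and less Adamts5 mRNA than degarelix only rats, and these 3 were the members past the threshold (edgeR quasi-likelihood test, Benjamini-Hochberg adjusted p under 0.05 over 12846 genes). Adamts7 was 1.5-fold and Adamts4 2.30-fold the degarelix only level, and Adamts5 0.553-fold. ADAMTS7 cleaves cartilage oligomeric matrix protein and thrombospondin-1 and is known from vascular smooth muscle, whereas ADAMTS4 and ADAMTS5 are the classical aggrecanases, which cut aggrecan, versican and related proteoglycans. The 2 higher members of 37 compare with 1.21% of all tested genes, the 1 lower member with 1.07%, and the 3 in both directions with 2.27%. At an unadjusted p under 0.05, 10 of 37 members passed (27.0%), against 22.6% of all tested genes. In bulk tissue, fewer cells of a type and less RNA per cell cannot be told apart.

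The stretches around the starts of both genes that rose are shown here from RefSeq (build GRCr8), 250 bases before to 50 bases after the annotated start, as the upstream sequence of the transcripts under study. The table used has no entry for Adamts5. Capitals mark matches on either strand to any of 6 searched words, which were the TATA box TATAAA, the GC box GGGCGG, the CCAAT box, the AP-1 site TGANTCA, the cAMP response element TGACGTCA and the E-box CACGTG. No match in these 2 windows overlapped another.
Adamts4, chr13:86202761-86203060, plus strand: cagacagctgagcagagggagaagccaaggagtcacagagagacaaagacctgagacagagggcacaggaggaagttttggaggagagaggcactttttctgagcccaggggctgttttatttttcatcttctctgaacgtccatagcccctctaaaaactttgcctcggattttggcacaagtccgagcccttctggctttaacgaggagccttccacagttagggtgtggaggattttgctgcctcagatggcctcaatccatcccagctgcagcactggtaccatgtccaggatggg
Adamts7, chr8:99584279-99584578, plus strand: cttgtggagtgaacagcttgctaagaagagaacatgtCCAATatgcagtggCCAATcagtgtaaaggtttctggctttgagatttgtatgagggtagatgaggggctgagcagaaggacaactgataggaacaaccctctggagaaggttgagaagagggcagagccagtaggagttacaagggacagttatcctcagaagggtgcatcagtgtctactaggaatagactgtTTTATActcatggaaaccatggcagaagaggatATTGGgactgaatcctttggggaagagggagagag

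The Adamts4 window held none of the 6 words, and the Adamts7 window held TATAAA 1 time and CCAAT 3 times. The TATAAA match lay on the minus strand, opposite to the gene, at offset -18 from the start. Of the 3 CCAAT matches, 1 was on the minus strand at offset 15, after the start. Over all 33469 promoters in the table, the TATA box was found in 14.2%, the GC box in 33.1%, the CCAAT box in 37.5%, the AP-1 site in 7.33%, the cAMP response element in 1.83% and the E-box in 6.42%. Of the 26 tested members with an entry, 20 held a GC box, 6 a CCAAT box, 4 a TATA box, 1 an AP-1 site, 1 an E-box and 0 a cAMP response element. The GC content of the window was 52.3% for Adamts4 and 46.7% for Adamts7, against a median of 67.5% over the 26 and 51.7% over all promoters. A match is a description of letters and marks no binding site.

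Adamts7 (ENSRNOG00000028036) had 24.2, 25.0, 22.5, 26.0 and 28.6 CPM in degarelix plus FSH replicates 1 to 5, against 18.0, 18.1, 17.0, 14.5, 18.1 and 15.5 CPM in degarelix only replicates 1 to 6. The lowest FSH library lay above the highest degarelix only library, so the groups did not overlap. The means were 25.3 ± 2.28 and 16.9 ± 1.55 CPM, a log2 change of 0.58 ± 0.08 (SE; adjusted p = 0.00835, edgeR). Adamts7 was the 1 member of 37 tested whose groups were apart (2.70%), beside 4.34% of all tested genes. It passed the threshold whichever single library was left out, with adjusted p between 0.0115 and 0.0293, and 0.0135 without FSH replicate 3.

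Adamts4 (ENSRNOG00000003538) had 14.8, 19.1, 27.6, 23.1 and 28.7 CPM in the degarelix plus FSH libraries, against 6.74, 7.02, 11.5, 15.2, 9.54 and 9.11 CPM in the degarelix only libraries. All 5 FSH libraries were above the degarelix only mean, but FSH replicate 1 lay just under degarelix only replicate 4, so the groups overlapped by that pair. The means were 22.7 ± 5.81 and 9.85 ± 3.15 CPM, a log2 change of 1.20 ± 0.23 (adjusted p = 0.0311, edgeR). The call depended on single libraries: it was kept in 4 of 11 fits with 1 library left out, and the adjusted p was 0.0661 without FSH replicate 2, 0.0559 without FSH replicate 3, 0.0757 without FSH replicate 5, and 0.0629, 0.0512, 0.0603 and 0.0633 without degarelix only replicates 1, 2, 5 and 6. The log2 change in all 11 fits stayed between 1.10 and 1.37.

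Adamts5 (ENSRNOG00000057794) had 108.9, 96.0, 67.3, 99.3 and 72.2 CPM in the degarelix plus FSH libraries, against 158.7, 178.9, 147.0, 104.7, 160.1 and 213.0 CPM in the degarelix only libraries. All 5 FSH libraries were below the degarelix only mean, and the groups overlapped because FSH replicate 1 lay above degarelix only replicate 4. The means were 88.7 ± 18.1 and 160.4 ± 35.7 CPM, a log2 change of -0.85 ± 0.18 (adjusted p = 0.0367, edgeR). The call was kept in 2 of 11 fits with 1 library left out, those without FSH replicate 4 and without degarelix only replicate 4. The adjusted p was 0.0645, 0.0834, 0.0661 and 0.0904 without FSH replicates 1, 2, 3 and 5, and 0.0736, 0.0600, 0.0538, 0.0630 and 0.0639 without degarelix only replicates 1, 2, 3, 5 and 6. The log2 change stayed between -0.95 and -0.76 throughout.

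**Figure D2:**
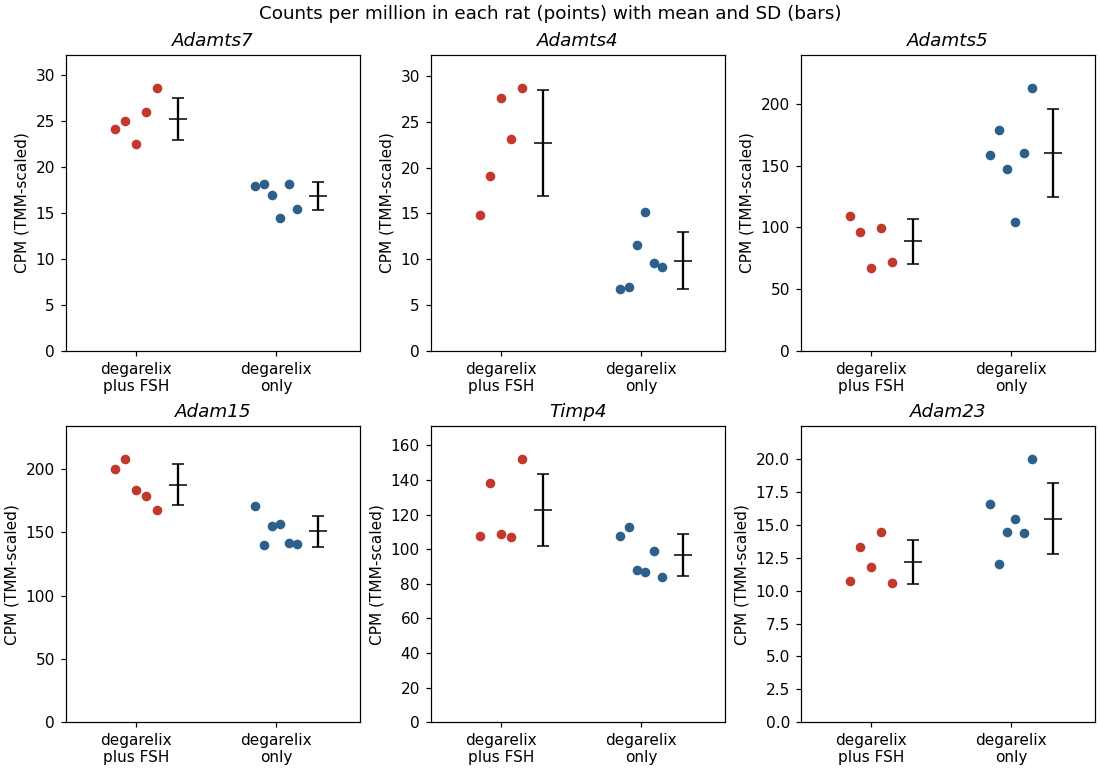
CPM, scaled by library factors (TMM), in each rat for the 6 tested members of smallest p, with degarelix plus FSH on the left and degarelix only on the right of each panel; points are rats, and bars give the mean and SD (n = 5 and 6). The groups are apart for Adamts7 and meet at 1 pair of rats for Adamts4 and Adamts5.

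Both aggrecanase transcripts can be set against each other within a library, where depth cancels. This ratio was chosen after the values were seen and carries no test. For each Adamts4 count there were 7.37, 5.02, 2.44, 4.29 and 2.52 Adamts5 counts in the degarelix plus FSH libraries, against 23.5, 25.5, 12.8, 6.90, 16.8 and 23.4 in the degarelix only libraries. The means were 4.33 ± 2.04 and 18.1 ± 7.32, and degarelix only replicate 4 was the single control library inside the FSH range. The ratio compares counts of transcripts whose lengths were not used, so it is read between libraries and not as molecules of one gene per molecule of the other.

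**Figure D3:**
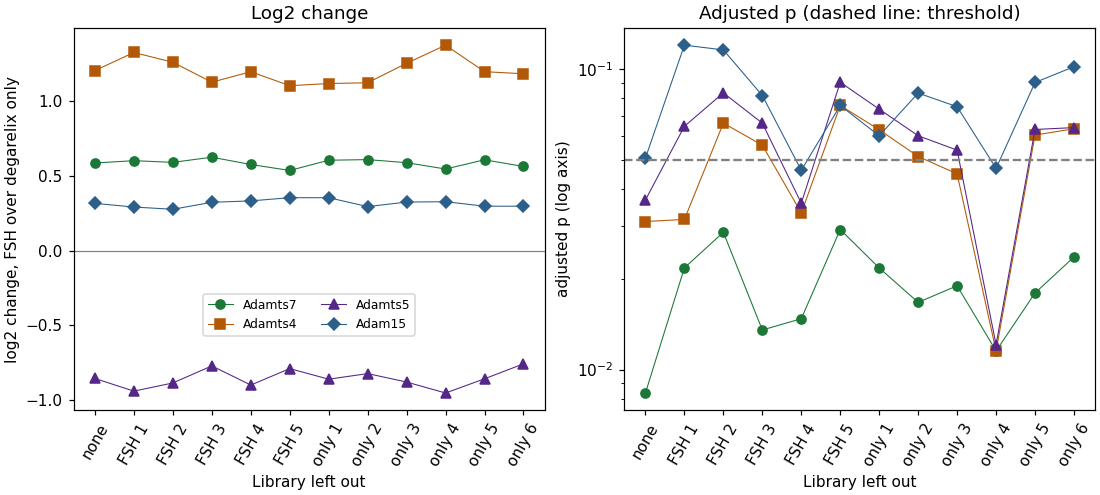
Left, log2 change of Adamts7, Adamts4, Adamts5 and Adam15 (degarelix plus FSH over degarelix only) with no library or with the named library left out; right, the adjusted p of the same fits on a log axis, with the threshold dashed. The log2 changes keep their sign in every fit, Adamts7 stays below the threshold throughout, and Adamts4 and Adamts5 cross it in 7 and 9 of 11 fits.

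The other 7 tested Adamts genes did not pass the threshold. Adamts15, an aggrecanase-related protease, had 40.5 ± 4.18 CPM with FSH and 30.9 ± 9.11 CPM with degarelix only (log2 change 0.39 ± 0.17, adjusted p = 0.210, edgeR). Adamts9, a versicanase, had 64.4 ± 4.91 and 53.0 ± 10.6 CPM (0.28 ± 0.13, adjusted p = 0.217). For both, all 5 FSH libraries lay above the degarelix only mean while the ranges overlapped. Adamts1, another versicanase, the neighbour of Adamts5, had 72.3 ± 9.61 and 81.4 ± 27.7 CPM (log2 change -0.17 ± 0.21, adjusted p = 0.669). Its degarelix only libraries ran from 45.0 to 123.8 CPM, wider than the whole FSH range of 62.7 to 88.2 CPM. Adamts2, which trims the amino end of procollagens, had 52.8 ± 8.35 and 50.9 ± 7.53 CPM (0.05 ± 0.12), and Adamts12, a protease related to ADAMTS7, 102.7 ± 18.3 and 90.4 ± 7.25 CPM (0.19 ± 0.11, adjusted p = 0.333). Adamts10, known for its tie to fibrillin microfibrils, had nearly equal means of 217.2 ± 59.1 and 217.3 ± 12.1 CPM, with FSH libraries spread from 160.7 to 315.4 CPM against 207.2 to 240.3 CPM. Adamts14, a procollagen protease like ADAMTS2, had a log2 change of 0.16. The median log2 change of the 10 tested Adamts genes was 0.17, beside 0.01 for all tested genes, and 7 of 10 were positive (70.0%, beside 51.6%).

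**Figure D4:**
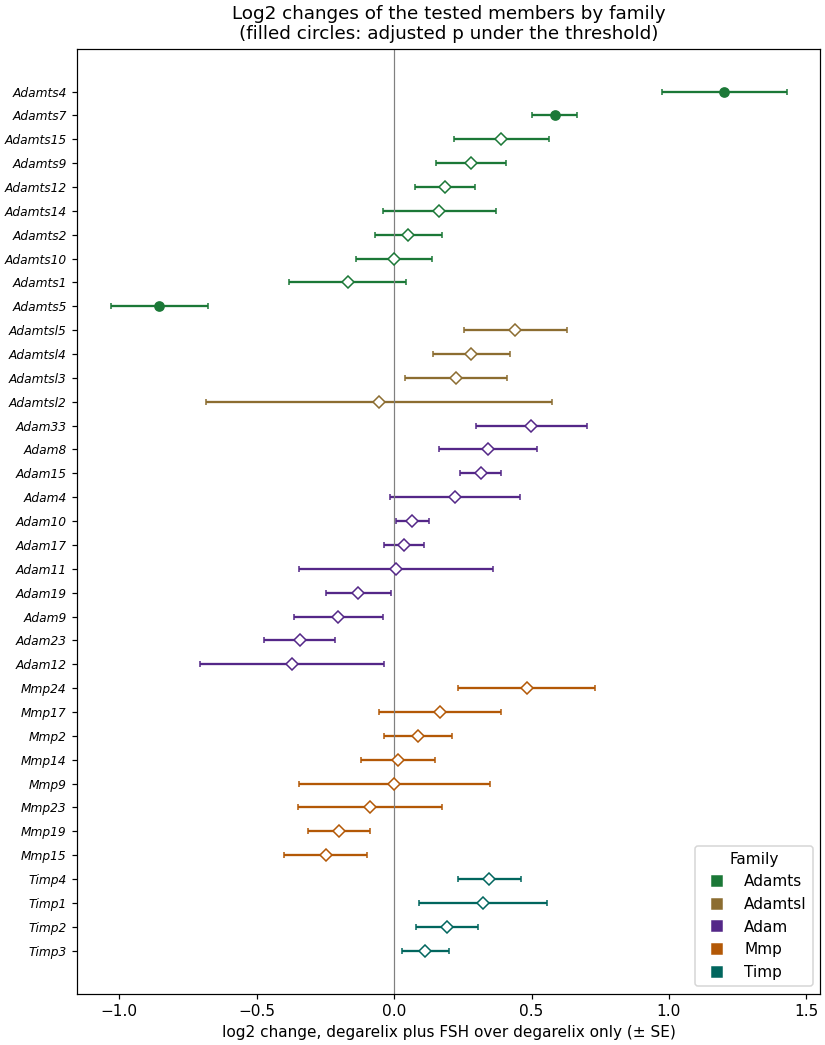
Log2 change, degarelix plus FSH over degarelix only, of the 37 tested members with its SE, grouped by family; filled circles passed the threshold of adjusted p 0.05 and open diamonds did not. Adamts4 at 1.20 and Adamts5 at -0.85 stand at opposite ends of the same family.

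All 4 Adamtsl genes were tested and none passed with edgeR, limma-voom or DESeq2, with 1 at an unadjusted p under 0.05 (edgeR, 25.0% beside 22.6% of all tested genes). Adamtsl5 had 5.24 ± 0.80 CPM with FSH and 3.85 ± 0.94 CPM with degarelix only (log2 change 0.44 ± 0.19, adjusted p = 0.190, edgeR). Adamtsl4, a fibrillin-binding protein, had 68.9 ± 8.90 and 56.6 ± 12.5 CPM (0.28 ± 0.14, adjusted p = 0.255). In both genes each FSH library exceeded the degarelix only mean. Adamtsl3 had 8.06 ± 2.71 and 6.88 ± 0.72 CPM (0.23 ± 0.19). Adamtsl2, another microfibril-associated protein, varied most: its FSH libraries held 3.96, 0.617, 6.68, 1.3 and 4.51 CPM, against 2.32, 3.47, 2.61, 9.38, 2.48 and 0.780 CPM in the degarelix only libraries. That spread, more than 10-fold within each group, left a log2 change of -0.06 with an SE of 0.63. The family median was 0.25.

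Of the 11 tested Adam genes none passed with edgeR, 3 had an unadjusted p under 0.05 (27.3%, beside 22.6% of all tested genes), and Adam15 came closest. Adam15, a membrane disintegrin found on endothelial and other cells, had 199.9, 207.5, 183.5, 178.5 and 167.4 CPM in the degarelix plus FSH libraries, against 170.7, 139.6, 155.2, 156.4, 141.2 and 140.7 CPM in the degarelix only libraries. Only FSH replicate 5 lay inside the degarelix only range. The means were 187 ± 16.2 and 150.6 ± 12.4 CPM, a log2 change of 0.31 ± 0.07 with an adjusted p of 0.0506 (edgeR). It fell on the other side of the threshold with upper-quartile factors (0.0453), with library totals alone (0.0376), with a stricter filter (0.0478), with limma-voom (0.0495) and with DESeq2 (0.00331). It stayed above the threshold with DESeq2 size factors (0.0532), without robust estimation (0.0505), with no filter (0.0674) and with a replicate block (0.146, all edgeR). Of 11 fits with 1 library left out, it passed in 2, without FSH replicate 4 (0.0461) or degarelix only replicate 4 (0.0468). The adjusted p in the other such fits reached 0.120, without FSH replicate 1.

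Adam33, a protease of mesenchymal cells, had 252.8 ± 45.5 CPM with FSH and 178.7 ± 51.9 CPM with degarelix only (log2 change 0.50 ± 0.20, adjusted p = 0.180, edgeR). Adam23, a disintegrin without protease activity, had 12.2 ± 1.68 and 15.5 ± 2.68 CPM (-0.34 ± 0.13, adjusted p = 0.151), and all 5 FSH libraries lay below the degarelix only mean. Adam8, a protease of myeloid cells, had 7.17 ± 1.80 and 5.64 ± 1.2 CPM (0.34 ± 0.18, adjusted p = 0.279). None of the 3 passed after adjustment, while Adam23 and Adam33 had unadjusted p of 0.0209 and 0.0306 (edgeR). The main sheddases showed small differences with narrow errors. Adam17, which releases tumour necrosis factor and epidermal growth factor receptor ligands, had 61.7 ± 4.95 and 60.2 ± 4.88 CPM (0.04 ± 0.07), and Adam10, a sheddase of Notch receptors, 41.2 ± 3.29 and 39.3 ± 1.38 CPM (0.07 ± 0.06). Adam9 had 76.1 ± 20.5 and 87.6 ± 14.2 CPM (-0.20 ± 0.16), and Adam19, a shedder of neuregulin, 63.8 ± 9.62 and 69.9 ± 10.2 CPM (-0.13 ± 0.12). Adam12, known in preadipocytes, was near the detection limit at 0.552 ± 0.22 and 0.718 ± 0.32 CPM. Adam4 and Adam11 completed the tested Adam genes, both near the detection limit, with log2 changes of 0.22 and 0.01. The median log2 change of the family was 0.04.

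No Mmp gene passed at the adjusted threshold, and 0 of 8 had an unadjusted p under 0.05. Neither limma-voom nor DESeq2 called any, though DESeq2 gave no adjusted p for Mmp9 and Mmp24. Mmp2, the gelatinase of mesenchymal cells, had 223, 219.9, 205.4, 316 and 261 CPM with FSH, against 214, 241, 195.8, 238, 283.5 and 213 CPM with degarelix only, and the groups overlapped over most of their range (log2 change 0.09 ± 0.12, adjusted p = 0.707, edgeR). Mmp14, the membrane-anchored collagenase that activates pro-MMP2, had 70.4 ± 12.9 and 69.7 ± 12.2 CPM (0.01 ± 0.14, adjusted p = 0.961). Both members of this activation pair were thus near equal between the groups. Mmp15, another membrane-anchored member, had 136.1 ± 35.5 and 161.7 ± 22.6 CPM (-0.25 ± 0.15, adjusted p = 0.346), and without FSH replicate 3, its highest FSH library at 194 CPM, the log2 change was -0.41 (adjusted p = 0.0969). Mmp19 had 58.5 ± 8.02 and 67.2 ± 10.1 CPM (-0.20 ± 0.11), and Mmp23 123.8 ± 33.0 and 131.4 ± 47.9 CPM (-0.09 ± 0.26). Mmp24, near the detection limit with 9 to 22 counts per library, had 0.882 ± 0.23 and 0.633 ± 0.16 CPM (0.48 ± 0.25, adjusted p = 0.272). Mmp9, the gelatinase of neutrophils and macrophages, was also near the detection limit, with 6 to 25 counts per library. It had 0.866 ± 0.46 and 0.876 ± 0.45 CPM, and Mmp17 had a log2 change of 0.17. The family median was 0.01.

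All 4 inhibitors had positive log2 changes, under every scaling tried, beside 51.6% of all tested genes in the main fit. None passed the threshold with edgeR, limma-voom or DESeq2 (1 at an unadjusted p under 0.05, edgeR, 25.0% beside 22.6% of all tested genes). Timp4, the TIMP with the most restricted tissue pattern and one known from fat and heart, had 107.4, 138.0, 108.5, 107.3 and 151.9 CPM with FSH, against 107.8, 113.1, 87.7, 86.8, 99.0 and 84.2 CPM with degarelix only. The FSH libraries were all higher than the degarelix only mean, but 3 of the 5 lay within the degarelix only range. The means were 122.6 ± 21.0 and 96.4 ± 12.1 CPM (log2 change 0.35 ± 0.12, adjusted p = 0.115, edgeR). Timp2 had 153.8 ± 27.7 and 134.5 ± 13.8 CPM (0.19 ± 0.11, adjusted p = 0.327), Timp1 17.3 ± 6.38 and 13.8 ± 3.16 CPM (0.32 ± 0.23, adjusted p = 0.433), and Timp3, the matrix-bound inhibitor that also blocks ADAM17 and the aggrecanases, 220.7 ± 18.7 and 203.9 ± 21.2 CPM (0.11 ± 0.08, adjusted p = 0.446). Summed over the 4 genes, the FSH libraries held 466 to 537 CPM and the degarelix only libraries 407 to 482 CPM. Only FSH replicate 1 lay in the degarelix only range. Timp1 and Timp2 were highest in FSH replicate 3, and without it the family median log2 change was 0.14 in place of 0.26.

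**Figure D5:**
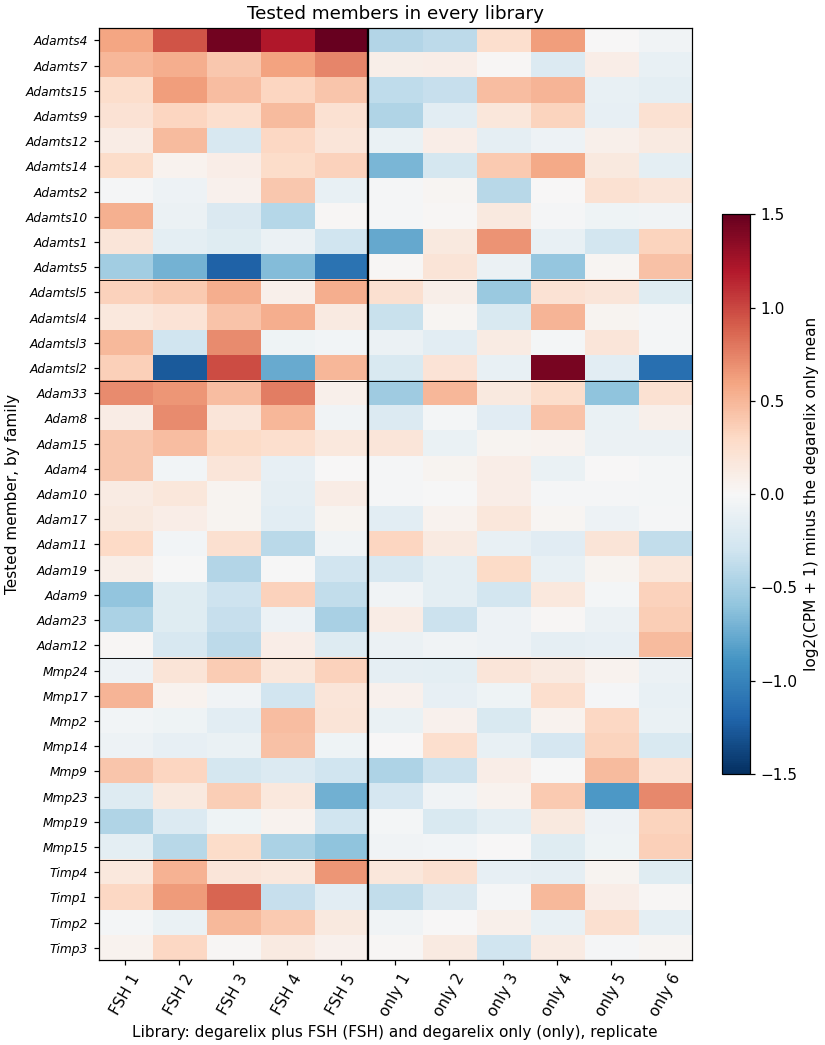
The 37 tested members (rows, by family) in the 11 libraries (columns, degarelix plus FSH left and degarelix only right of the heavy line), as log2(CPM + 1) minus the degarelix only mean. Adamts4 is raised and Adamts5 lowered across the FSH columns, and degarelix only replicate 4 has the reddest Adamts4 and the bluest Adamts5 of the degarelix only columns.

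By total, the families differed less between the groups than their extreme members did. Summed Adamts CPM was 705 ± 68.9 with FSH and 725 ± 58.9 with degarelix only, and summed Mmp CPM was 639 ± 71.8 and 665 ± 58.4. With library totals alone both differences had the other sign, 14.1 and 3.05 CPM higher with FSH. Summed Adam CPM was 705 ± 74.1 and 610.0 ± 56.7, summed Adamtsl CPM 85.6 ± 10.2 and 70.9 ± 15.5, and summed Timp CPM 514 ± 27.8 and 449 ± 28.1. These sums weigh long and abundant transcripts most and were given no test. Over all 37 tested members the median log2 change was 0.11, beside 0.01 over all tested genes, and 26 of 37 (70.3%) were positive beside 51.6%. Members varied more between rats than genes at large, with a median coefficient of variation of 18.0% in FSH rats and 17.3% in degarelix only rats, against 12.7% and 12.6% over all tested genes. These sets were not matched for expression level, and the members include some near the detection limit, such as Mmp9 and Adam12.

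Genes that act with the metalloproteinases were read from 6 related lists, against the same edgeR background of 1.21% higher and 1.07% lower calls. Over all tested genes, 22.6% had an unadjusted p under 0.05 and 4.34% had groups apart. DESeq2 called 1135 genes of the whole table, against 292 with edgeR, so its calls below stand against a larger background. Of the 8 tested genes that activate MMPs or belong to the plasmin system, 1 rose, Plaur, the urokinase receptor that localizes plasminogen activation. It had 33.8 ± 1.52 CPM with FSH and 22.9 ± 3.52 CPM with degarelix only (log2 change 0.56 ± 0.10, adjusted p = 0.0233, edgeR). Its groups were apart. Furin, which cleaves the propeptides of many members, had 137.8 ± 9.02 and 153.5 ± 6.12 CPM, with the groups apart but an adjusted p of 0.144 (edgeR; DESeq2 called it lower). None of the 10 tested other inhibitors and clearance receptors, such as Reck and Lrp1, passed with edgeR (median log2 change 0.23, 2 at an unadjusted p under 0.05), while DESeq2 called Papln and Pcolce.

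Of 9 tested partners of the ADAM sheddases, such as the iRhoms and tetraspanins, none passed with edgeR (median -0.08, 1 at an unadjusted p under 0.05), and DESeq2 called 1, Tspan14. Of 15 tested proteoglycans and other ADAMTS substrates none passed with edgeR (median 0.21, 4 at an unadjusted p under 0.05) or DESeq2. The nearest was Comp, the substrate of ADAMTS7, at 2.39 ± 0.54 and 1.24 ± 0.34 CPM (0.95 ± 0.23, adjusted p = 0.0522), which limma-voom called. Versican (Vcan) had 9.05 ± 0.91 and 9.57 ± 3.23 CPM (-0.08 ± 0.21), and Acan, the substrate that names the aggrecanases, was at 0 in all libraries.

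Of 12 tested fibrillin microfibril genes 2 rose with edgeR and 10 had positive log2 changes (median 0.32, 5 at an unadjusted p under 0.05). Over all tested genes, 51.6% of log2 changes were positive and 22.6% had such a p. DESeq2 called 4, Eln, Fbln5, Ltbp1 and Ltbp4. Ltbp4, which stores latent transforming growth factor beta in the matrix, had 277.6 ± 31 CPM with FSH and 199.6 ± 24.6 CPM with degarelix only (0.48 ± 0.10, adjusted p = 0.0382, edgeR), and Fbln5, an elastic fibre assembly protein, 104.3 ± 7.39 and 81.7 ± 5.11 CPM (0.35 ± 0.06, adjusted p = 0.0263). Of 12 tested collagens none passed with edgeR (median 0.00, 1 at an unadjusted p under 0.05), and DESeq2 called 1, Col15a1. Plaur, Ltbp4 and Fbln5 had groups that did not overlap, but each lost its call in some fits with 1 library left out. Plaur lost it without FSH replicate 1, 2 or 5 or degarelix only replicate 1 or 6 (adjusted p up to 0.0656). Ltbp4 lost it without FSH replicate 1, 2 or 3 or degarelix only replicate 1, 3, 5 or 6 (up to 0.0960, and 0.0708 without FSH replicate 3). Fbln5 lost it without FSH replicate 1 or 2 or degarelix only replicate 6 (up to 0.0718).

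Markers of vessel cells were measured beside Adamts7, Adamts4 and Adam15. The 8 matched endothelial markers all had positive log2 changes and summed to 1560 to 2499 CPM with FSH, against 1368 to 1866 CPM with degarelix only (means 1967 ± 356 and 1567 ± 167, exact permutation p = 0.0281, adjusted 0.273 over 18 lists). The 6 smooth muscle markers likewise all had positive log2 changes and summed to 625 to 933 CPM with FSH, against 526 to 715 CPM with degarelix only (exact permutation p = 0.0303, adjusted 0.273). Within them Smtn, a contractile protein of smooth muscle, rose, with 116.3 ± 12.5 and 72.5 ± 6.50 CPM (0.68 ± 0.08, adjusted p = 0.00509, edgeR), and Tek, the endothelial angiopoietin receptor, rose, with 135.4 ± 19.4 and 100.03 ± 9.92 CPM (0.44 ± 0.10, adjusted p = 0.0431). Smtn kept its call whichever library was left out. Tek kept it in 3 of 11 such fits, those without FSH replicate 4 or degarelix only replicate 3 or 4, with adjusted p up to 0.106 and 0.0661 without FSH replicate 3. The other markers of either list did not pass with edgeR, while DESeq2 also called Cldn5 and Esam. The 6 pericyte markers summed to 772 ± 69.2 CPM with FSH and 707 ± 151 CPM with degarelix only (exact permutation p = 0.416, adjusted 0.991). Of these, 5 had positive log2 changes and 1 a negative one. Lymphatic endothelial markers summed to 45.4 ± 4.51 and 40.7 ± 11.2 CPM (exact permutation p = 0.429, adjusted 0.991). No marker of these lists passed with edgeR or DESeq2. Beside Adamts5, the 6 fibroblast and progenitor markers that matched summed to 536 ± 54.3 CPM with FSH and 520 ± 107 CPM with degarelix only. Macrophage markers summed to 216 ± 62.9 and 215 ± 72.2 CPM, and neutrophil markers to 408 ± 61.4 and 598 ± 196 CPM (exact permutation p = 0.0974, adjusted 0.584). Nearly all of the neutrophil sum was Mpo, at 393 ± 63.4 and 584.5 ± 197 CPM, and of the 4 tested neutrophil markers 2 had positive and 2 negative log2 changes. The part of these cell types in the changes of the members was not tested.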

How the data were processed

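RNA from 11 rats, 1 library each, was read from a table that the authors deposited, which holds raw counts for each Ensembl gene. Libraries were stranded and paired-end, per the labels' protocols. STAR, edgeR, DESeq2 and the build rn6 are named in the submitters' processing notes without versions or roles. How strand was treated in counting, and by which program and annotation, is not given in the sources used here, so overlapping or antisense genes and near-identical copies (the Adam21 rows) are uncertain. Of 25275 rows, 1 (Pcmt1) held a letter in place of a count and was left out. Of the rest 17034 had a count, and 12846 passed filterByExpr.

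Groups came from the labels. The fit used edgeR 4.0.16 in R 4.3.3 with TMM library factors and its quasi-likelihood F test (robust, group as the single term, two-sided, 9 residual degrees of freedom). P-values were adjusted by Benjamini-Hochberg over all tested genes, with a threshold of 0.05, and 292 genes were called, 155 higher and 137 lower. The fit was tested on several draws of simulated counts, and in some of them, the first included, false calls were a larger share of the calls than the threshold allows. CPM is relative to the TMM-scaled total. Errors on CPM are SD between rats, and errors on log2 changes are SE. Marker sums used an exact permutation test over all 462 splits (smallest p 0.00216), two-sided. The heat map adds 1 CPM before the log. Every pair of libraries differed by more than sampling noise (lowest chi-square per degree of freedom 21.3 over 55 pairs).

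Members, related lists, markers and named genes were chosen with earlier results of these data known. Named were members past the threshold, the 15 of smallest p, the 3 of highest mean in each family, all Timp genes and a fixed list, in all 36 members, of which 33 were tested. Adamts13, Mmp12 and Mmp3 were not tested, and Mmp11 is not analysed here. Of the related symbols 101 of 103 matched the table, and of the marker symbols 96 of 101. The list of ADAM substrates is not reported here. Alternatives were other scalings, filters, limma-voom 3.58.1, DESeq2 1.42.0, a threshold of 0.10, a replicate block and each library left out. Transcript lengths were not used, so levels of different genes are not comparable.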

Additional observations from a re-analysis of the deposited data

Results flagged for a closer look

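Samples far from the rest of their group were looked for among 94 groups of values, and 9 stood out, where chance gives about 1 in 20 groups. Degarelix only replicate 4 held the highest Adamtsl2 value of its group, 9.38 CPM against 0.780 to 3.47 CPM in the others, the highest Adamtsl4 value, 79.7 CPM against 44.0 to 57.2 CPM, and with them the highest summed Adamtsl value, 100.3 CPM against 57.4 to 72.0 CPM. Degarelix only replicate 6 had the highest Adam12 value, 1.36 CPM against 0.552 to 0.634 CPM, and the highest Mmp15 value, 205.9 CPM against 141 to 161 CPM. Degarelix only replicate 3 had the highest Adam10 value, 42.1 CPM against 38.4 to 39.2 CPM, and the highest Tek value, 118.7 CPM against 90.3 to 100.1 CPM. In the degarelix plus FSH group, replicate 4 had the highest Mmp14 value, 93.4 CPM against 63.3 to 65.9 CPM, and replicate 1 the lowest summed Timp value, 466 CPM against 517 to 537 CPM. The cause of these values was not tested.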

How the results depend on the processing

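Adamts7, Adamts4 and Adamts5 kept their call and direction under other scalings, both filters, the fit without robust estimation, limma-voom and DESeq2 (8 of 8 alternatives each), and Adam15 crossed the threshold in 5 of 8. The median log2 change of all genes moved to 0.08 with library totals alone, against 0.01 with TMM, and the split of called genes moved to 183 higher and 88 lower, against 155 and 137. A threshold of 0.10 gave 962 genes (511 higher, 451 lower), and DESeq2 gave 1135 (571 and 564). Related genes came to 12 (10 higher, 2 lower) at 0.10 and 13 (10 and 3) with DESeq2. The median of the members was 0.184 with library totals alone and 0.172 with no filter, that of the tested Adam genes 0.105 with library totals alone, and that of the Mmp genes 0.117 with no filter. The summed smooth muscle markers differed by 190 CPM with library totals alone, with an adjusted exact p of 0.0390. The labels give both groups replicate numbers 1 to 5, but the numbers share no stated batch or litter, and same-numbered libraries correlated by 0.118, -0.110, -0.109, 0.130 and 0.124, none of them best with its own number. With the replicate block 14 genes passed (10 higher, 4 lower), 0 members (0 higher, 0 lower) and 0 related genes (0 higher). Under the block Adamts7 had a log2 change of 0.56 (adjusted p = 0.0844), Adamts4 1.20 (0.0515), Adamts5 -0.76 (0.121) and Adam15 0.30 (0.146).

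Leaving out 1 library at a time gave 30 to 551 genes, 22 to 272 higher and 8 to 279 lower, 1 to 4 members, 1 to 3 higher and 0 to 1 lower, and 0 to 8 related genes, 0 to 7 higher and 0 to 1 lower. The lowest count of genes was without FSH replicate 2 and the highest without FSH replicate 4. Medians ranged over 0.104 to 0.302 for Adamts, 0.151 to 0.450 for Adamtsl, 0.00563 to 0.113 for Adam, -0.104 to 0.121 for Mmp, 0.140 to 0.292 for Timp and 0.114 to 0.187 for all members. The cause of these shifts was not tested. DESeq2 gave no adjusted p for Adam12, Mmp24 and Mmp9.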

Other observations

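Several members that stayed below the filter were uneven between libraries, and they are named here after their values were seen. Adamts8, a protease with thrombospondin repeats that is the neighbour of Adamts15, had 1, 32, 21, 98 and 3 counts in the degarelix plus FSH libraries, or 0.0601, 1.97, 1.56, 5.77 and 0.145 CPM, against 6, 0, 3, 0, 0 and 12 counts, at most 0.585 CPM, in the degarelix only libraries. Fitted with no filter its log2 change was 3.34 with an adjusted p of 0.160 (edgeR), the lowest among the 19 members that had counts but were not tested. Of those 19, 3 had an unadjusted p under 0.05 and 0 an adjusted one. Adamts20 had 20 of its 31 counts in degarelix plus FSH replicate 3, the library with the high Schwann cell and nerve markers, and Mmp8, the neutrophil collagenase, 28 of its 54 counts in degarelix plus FSH replicate 5. Mmp12, the macrophage elastase, had 24, 20, 3, 2 and 0 counts with FSH, against 0, 1, 26, 9, 37 and 11 counts with degarelix only, and was scattered in both groups.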
